A study of Mus musculus with 18 samples.

Results

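The genes followed here are 10 that carry the synthesis of prostaglandins and leukotrienes, or that act on the phospholipids from which these lipids are made: Ptgs1, Ptgs2, Ptges, Hpgds, Alox5, Alox5ap, Alox15, Ltc4s, Pla2g4a and Pla2g7. They were taken by name from the 18668 rows of the gene table, and all 10 were found and passed the filter on low values. The rule itself uses no expression value, but the genes were chosen with earlier results of these data known. The study cultured bone marrow-derived macrophages (BMDM), the macrophages that grow out of marrow cells under M-CSF, and asked how loss of Treml4, a receptor of myeloid cells, alters the response to oxidised LDL (oxLDL), the particle that turns macrophages of the artery wall into foam cells. RNA-seq was run on 18 libraries from C57BL6 mice.

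All 6 groups lacked Apoe. The Apoe-/- groups carried that deletion alone, and the Apoe-/-/Treml4-/- groups (DKO) lacked Treml4 as well, so no group was wild type. Each genotype was left untreated, given oxLDL at 10 µg/ml (oxLDL 10) or given oxLDL at 60 µg/ml (oxLDL 60), with 3 libraries per group. The series record gives the exposure as 16 h and the methods text as 24 h. Age and sex of the marrow donors are not given in the labels.

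Arachidonic acid is held in membrane phospholipids until a phospholipase such as cPLA2 frees it. The cyclooxygenases convert it to prostaglandin H2, which terminal synthases turn into prostaglandin E2, prostaglandin D2 and related prostanoids. The 5-lipoxygenase pathway instead leads to leukotriene A4 and from there to leukotriene B4 or to the cysteinyl leukotrienes, and macrophages are known to make lipids of both branches.

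The targeted gene Treml4 stood at 1.86 to 8.39 RPKM (RPKM are reads scaled by transcript length and by library total) in the Apoe-/- libraries and at 0 to 0.0116 RPKM in DKO, and Apoe reads of 0.349 to 4.13 RPKM remained in all libraries. Depth, recovered from the steps of low values, ran from 39.7 to 54.2 M reads. All 9 macrophage markers were present, with Adgre1 at 339 to 594 RPKM. The libraries of Apoe-/- replicate 2 and DKO replicate 3 contained Xist transcripts (7.25 RPKM or more) at every treatment and the other 12 did not (at most 0.069 RPKM). These 6 libraries stand apart in some of the genes below, and their values are given there.

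The genes spanned a wide range of abundance in these cells. Alox5ap was the highest, with a mean over the 18 libraries of 278 RPKM, above 98.4% of the 12838 genes that passed the filter on low values. Hpgds (43.6 RPKM), Pla2g4a (42.2) and Pla2g7 (36.9) followed, and their ranges over the libraries overlapped. Ptgs1 averaged 15.3 RPKM, Ptges 10.8, Ltc4s 6.92, Ptgs2 3.5 and Alox5 2.19. Neighbours in this second run overlapped in range over all treatments as well, from Ptgs1 at 10.9 to 20.9 RPKM down to Alox5 at 1.36 to 3.14. Alox15 was last at 0.116 RPKM, above 5.44% of tested genes. RPKM values are scaled by transcript length, so these levels can be set beside each other only roughly. The annotation behind the lengths is not given, and a length other than that of the expressed transcript would shift a gene's level.

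**Figure D1:**
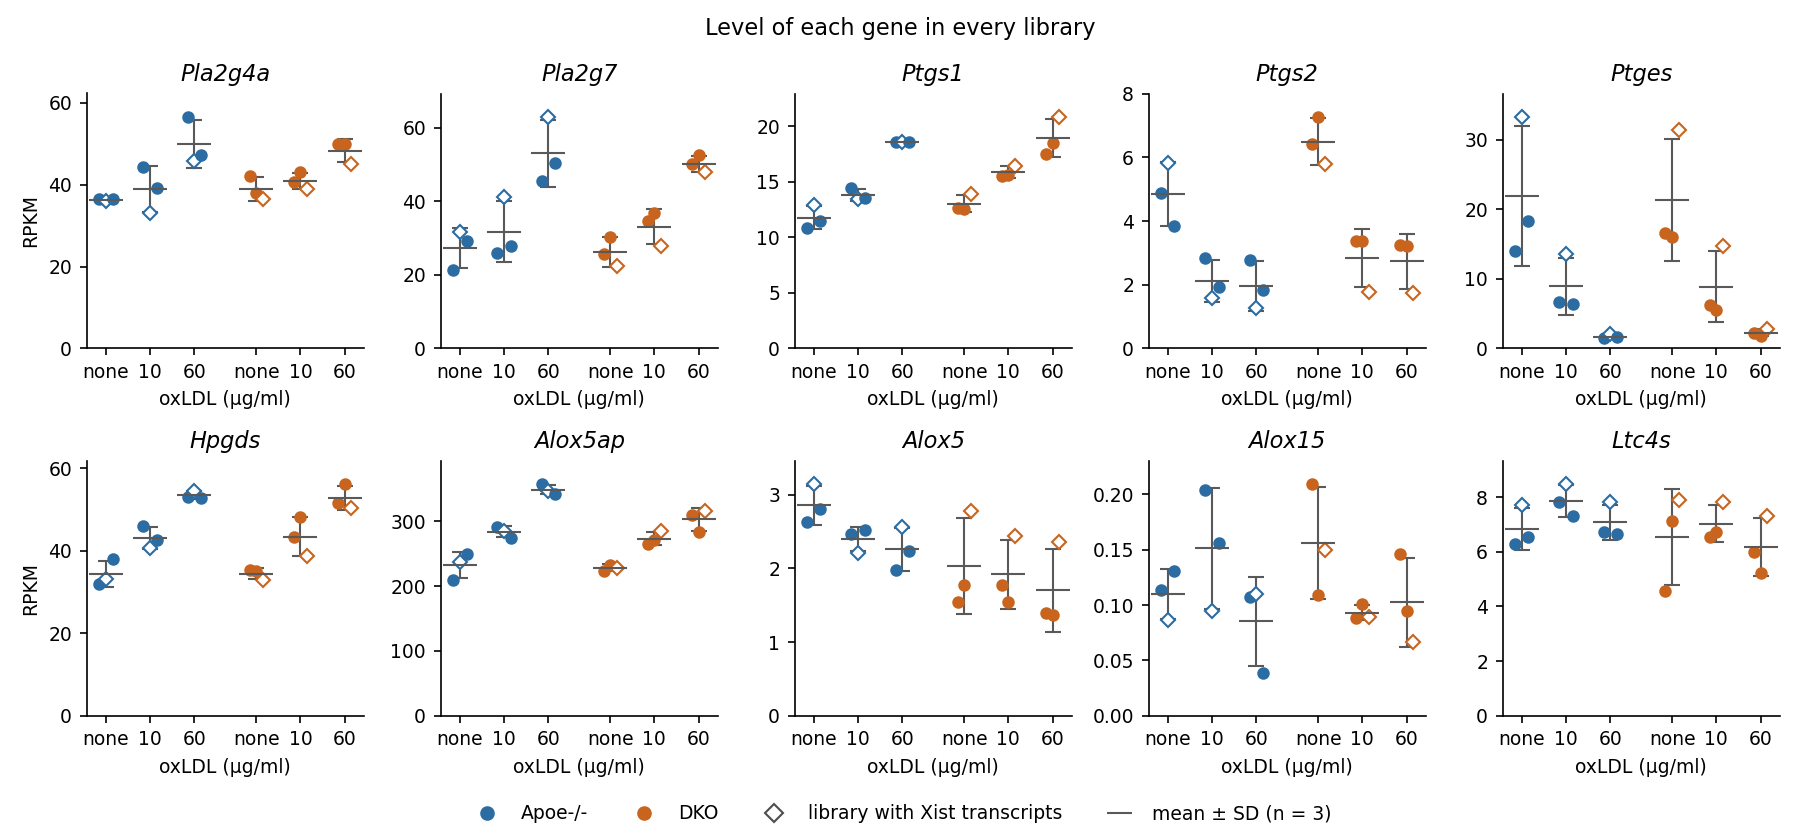
RPKM (y axis, starting at 0) of the 10 genes in every library, by oxLDL concentration in µg/ml (x axis) for Apoe-/- (blue) and DKO (orange). Diamonds mark the 6 libraries with Xist transcripts, bars the mean ± SD of 3 libraries. Ptges and Ptgs2 fall with oxLDL, while Ptgs1, Hpgds, Alox5ap and Pla2g7 stand highest at oxLDL 60.

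With oxLDL 60, the prostaglandin genes went in opposite directions in both genotypes. Ptges, the inducible prostaglandin E synthase, fell 11.6-fold in Apoe-/- and 8.7-fold in DKO, and the inducible cyclooxygenase Ptgs2 fell 2.49-fold and 2.41-fold. The constitutive cyclooxygenase Ptgs1 rose 1.58-fold and 1.45-fold, the prostaglandin D synthase Hpgds rose 1.56-fold and 1.53-fold, and Pla2g7 rose 1.94-fold and 1.93-fold. Folds are on the log2(RPKM + 0.1) scale and were tested with limma across all genes, with a gene called at an adjusted p under 0.05 and a fold change of at least 1.4.

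In Apoe-/- cells 6 of the 10 genes were called at oxLDL 60 against untreated, 4 higher and 2 lower, where 13.9% of all tested genes were called (7.13% higher and 6.78% lower). In DKO 5 were called, 3 higher and 2 lower, against 12.2% of all genes (4.87% higher and 7.31% lower). The median log2 fold change of the 10 was 0.25 in Apoe-/- and 0.13 in DKO, beside 0.06 and -0.06 over all tested genes. With 3 libraries against 3 an exact permutation test cannot give a p under 0.10. It gave 0.1, two-sided, for 8 of the genes in Apoe-/- and for 7 in DKO, those whose groups did not overlap at oxLDL 60 and untreated. No share over all genes stands beside these counts, so they are not read as a result about the 10. At an unadjusted limma p under 0.05 there were 7 in each genotype, beside 40.2% of all genes in Apoe-/- and 36.1% in DKO.

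With oxLDL 10, Ptgs2 was the only gene of the 10 called in either genotype in the main fit, which holds no replicate block. Of all genes 2.79% were called in Apoe-/- and 2.26% in DKO. With the replicate number as a block, Ptges was called too and the count was 2 in each genotype. The block gave 528 calls among all genes in Apoe-/- and 449 in DKO, beside 358 and 290 in the main fit. From oxLDL 10 to oxLDL 60, Ptges and Pla2g7 were called in both genotypes, beside 6.46% of all genes in Apoe-/- and 5.66% in DKO. These comparisons share libraries: both concentrations are set against the same untreated cells.

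**Figure D2:**
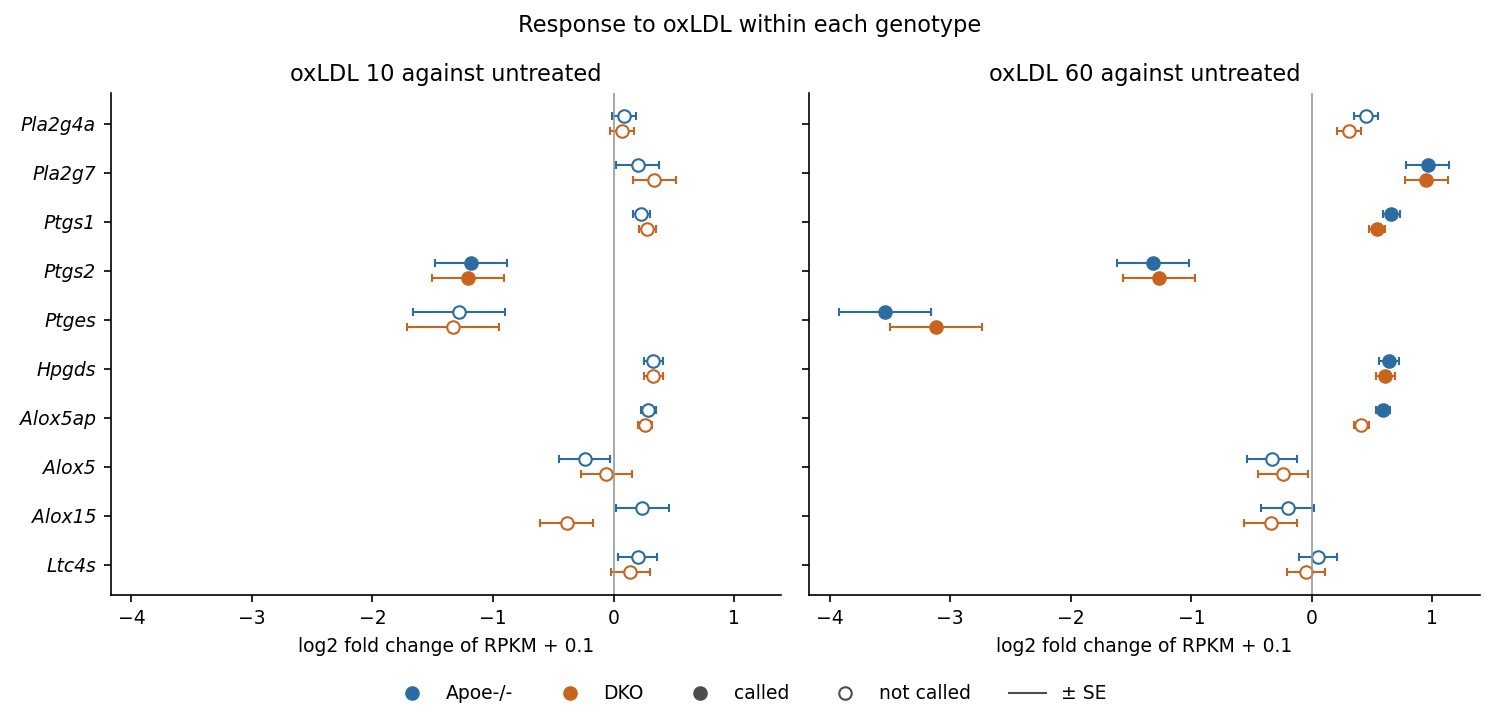
Log2 fold change of RPKM + 0.1 (x axis) for the 10 genes at oxLDL 10 (left) and oxLDL 60 (right) against untreated, with SE as bars, for Apoe-/- (blue) and DKO (orange). Filled points were called and open points were not. At oxLDL 60 Ptges lies at -3.54 and -3.12 and Ptgs2 near -1.3, with the called genes to the right of 0 between 0.54 and 0.96.

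Pla2g4a encodes cPLA2, the calcium-dependent phospholipase that releases arachidonic acid. Its levels in Apoe-/- replicates 1 to 3 were 36.4, 35.9 and 36.6 RPKM untreated, 44.3, 33.2 and 39.3 with oxLDL 10, and 56.7, 45.9 and 47.2 with oxLDL 60. In DKO they were 42.2, 37.9 and 36.6, then 40.6, 43.0 and 39.1, then 49.9, 50.0 and 45.1 RPKM. All libraries at oxLDL 60 lay above the untreated ones of their genotype, and those at oxLDL 10 overlapped with them. The log2 fold change at oxLDL 60 was 0.45 in Apoe-/- (SE 0.10, adjusted p = 0.00155 by limma) and 0.31 in DKO (SE 0.10, adjusted p = 0.0216 by limma). Both passed the p limit but stayed under a fold change of 1.4, so Pla2g4a was not called. In Apoe-/- it was called when replicate 2 of oxLDL 60 was left out (0.51, adjusted p = 0.00188 by limma) or replicate 3 (0.49, 0.00318), and with the Xist-positive libraries left out (0.50, 0.0012). At oxLDL 10 the log2 fold changes were 0.09 and 0.07.

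Pla2g7 encodes the lipoprotein-associated phospholipase A2, also called platelet-activating factor acetylhydrolase, which macrophages secrete and which cleaves platelet-activating factor and the oxidised phospholipids of LDL. In Apoe-/- it measured 21.2, 31.6 and 29.3 RPKM untreated, 26.0, 41.2 and 27.9 with oxLDL 10, and 45.6, 63.0 and 50.4 with oxLDL 60. In DKO it measured 25.8, 30.4 and 22.5, then 34.7, 36.8 and 27.7, then 50.1, 52.5 and 48.0 RPKM. The oxLDL 60 libraries were above every untreated and oxLDL 10 library of both genotypes. The mean went from 27.4 ± 5.4 RPKM (SD, n = 3) to 53.0 ± 9.0 in Apoe-/-, with a log2 fold change of 0.96 (SE 0.18, adjusted p = 0.000546 by limma), and from 26.2 ± 4.0 to 50.2 ± 2.2 in DKO, 0.95 (SE 0.18, adjusted p = 0.000694 by limma). Most of this change lay between the concentrations, with 0.76 in Apoe-/- (adjusted p = 0.00809 by limma) and 0.61 in DKO (adjusted p = 0.0279 by limma) from oxLDL 10 to oxLDL 60. At oxLDL 10 the groups overlapped with untreated and the values were 0.20 and 0.34, neither called. The DKO call from oxLDL 10 to 60 was lost when single libraries were left out (oxLDL 10 replicate 1 or 3, or any of the 3 oxLDL 60 libraries, limma adjusted p of 0.053 to 0.108).

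The cyclooxygenases catalyse the same reaction, Ptgs1 (COX-1) as the form most cells hold at a steady level and Ptgs2 (COX-2) as the form induced by inflammatory signals. Ptgs1 in Apoe-/- stood at 10.9, 12.9 and 11.5 RPKM untreated, 14.4, 13.4 and 13.6 with oxLDL 10 and 18.6, 18.5 and 18.6 with oxLDL 60. In DKO it stood at 12.7, 12.5 and 13.9, then 15.5, 15.6 and 16.4, then 17.5, 18.5 and 20.9 RPKM. Within each genotype the 3 treatments did not overlap, and the level was higher at each step. At oxLDL 60 the log2 fold change was 0.66 in Apoe-/- (SE 0.07, adjusted p = 2.36e-06 by limma) and 0.54 in DKO (SE 0.07, adjusted p = 2.68e-05 by limma). Without DKO oxLDL 60 replicate 3 the DKO value was 0.46, under the fold limit. At oxLDL 10 it was 0.23 in Apoe-/- (adjusted p = 0.0627 by limma) and 0.28 in DKO (adjusted p = 0.0355 by limma, under the fold limit).

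Ptgs2 went the other way. Untreated Apoe-/- libraries held 4.89, 5.83 and 3.84 RPKM, oxLDL 10 libraries 2.85, 1.58 and 1.94, and oxLDL 60 libraries 2.79, 1.26 and 1.82. In DKO the values were 6.42, 7.28 and 5.78, then 3.37, 3.38 and 1.78, then 3.23, 3.22 and 1.74 RPKM. Every treated library was below the untreated ones of its genotype, and the ranges of the concentrations overlapped. At oxLDL 10 the log2 fold change was -1.18 in Apoe-/- (SE 0.30, adjusted p = 0.0264 by limma) and -1.21 in DKO (SE 0.30, adjusted p = 0.0299 by limma). At oxLDL 60 it was -1.32 (SE 0.30, adjusted p = 0.00299 by limma) and -1.27 (SE 0.30, adjusted p = 0.00476 by limma). From oxLDL 10 to 60 it was only -0.14 in Apoe-/- (95% interval -0.78 to 0.50) and -0.05 in DKO (-0.69 to 0.59). The call at oxLDL 10 was lost with any of 4 libraries left out in each genotype: Apoe-/- untreated replicate 1 or 2 and oxLDL 10 replicate 2 or 3 (limma adjusted p of 0.071 to 0.104), and DKO untreated replicate 1, 2 or 3 and oxLDL 10 replicate 3 (0.0681 to 0.109). It was also lost with no filter on low values (0.0635 and 0.0832), while at oxLDL 60 it held under all 15 alternatives in each genotype.

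Because of these opposite directions, the ratio of Ptgs1 to Ptgs2 RPKM within a library was 2.21 to 3 in untreated Apoe-/- cells, 5.08 to 8.51 with oxLDL 10 and 6.66 to 14.7 with oxLDL 60. In DKO it was 1.72 to 2.4, then 4.6 to 9.26, then 5.4 to 12. The untreated libraries were below all treated ones, and the ranges of the 2 concentrations overlapped.

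Ptges encodes microsomal prostaglandin E synthase-1, which works downstream of Ptgs2 in inflamed tissue. In Apoe-/- it measured 14.1, 33.3 and 18.3 RPKM untreated, 6.70, 13.6 and 6.42 with oxLDL 10, and 1.44, 2.06 and 1.56 with oxLDL 60. In DKO it measured 16.5, 16.0 and 31.4, then 6.28, 5.52 and 14.7, then 2.26, 1.80 and 2.75 RPKM. The treatments did not overlap within a genotype, and the spread inside the untreated and oxLDL 10 groups came from a single high library each, the one with Xist transcripts. Mean levels went from 21.9 ± 10 to 8.9 ± 4.1 and 1.69 ± 0.33 RPKM in Apoe-/- (SD, n = 3), and from 21.3 ± 8.8 to 8.84 ± 5.1 and 2.27 ± 0.47 in DKO. At oxLDL 60 the log2 fold change was -3.54 in Apoe-/- (SE 0.38, adjusted p = 2.04e-06 by limma) and -3.12 in DKO (SE 0.38, adjusted p = 9.68e-06 by limma). From oxLDL 10 to 60 it was -2.26 (adjusted p = 0.000632 by limma) and -1.79 (adjusted p = 0.00419 by limma).

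At oxLDL 10 Ptges was -1.28 in Apoe-/- (SE 0.38, adjusted p = 0.0539 by limma) and -1.33 in DKO (SE 0.38, adjusted p = 0.0674 by limma), not called although no library overlapped. With the replicate number as a block the values were the same with an SE of 0.15, and both were called (adjusted p = 3.27e-05 by limma and 3.08e-05). Both were called without the Xist-positive libraries as well, at -1.28 (adjusted p = 7.78e-05 by limma) and -1.45 (2.61e-05). Over 15 alternatives the adjusted p ran from 3.27e-05 to 0.211 in Apoe-/- and from 2.61e-05 to 0.341 in DKO.

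Hpgds, the hematopoietic prostaglandin D synthase, uses the same prostaglandin H2. Apoe-/- libraries held 32.0, 33.1 and 38.0 RPKM untreated, 46.0, 40.6 and 42.7 with oxLDL 10 and 53.0, 54.5 and 52.8 with oxLDL 60. DKO libraries held 35.4, 35.1 and 33.0, then 43.3, 48.2 and 38.7, then 51.7, 56.2 and 50.5 RPKM. The 3 treatments did not overlap in either genotype, and the ranges of the genotypes overlapped at each treatment. The log2 fold change at oxLDL 60 was 0.64 in Apoe-/- (SE 0.08, adjusted p = 8.87e-06 by limma) and 0.61 in DKO (SE 0.08, adjusted p = 1.63e-05 by limma). At oxLDL 10 it was 0.33 in both (adjusted p = 0.0186 by limma and 0.0243), under the fold limit.

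Set against each other within a library, Hpgds and Ptges stood at ratios of 2.28, 0.995 and 2.07 in untreated Apoe-/- cells, 6.87, 2.99 and 6.65 with oxLDL 10, and 36.8, 26.5 and 33.9 with oxLDL 60. In DKO the ratios were 2.14, 2.2 and 1.05, then 6.9, 8.73 and 2.63, then 22.9, 31.1 and 18.4. Untreated cells thus held at most 2.28 times as much Hpgds as Ptges RNA per length, and cells with oxLDL 60 at least 18.4 times as much. Across the 18 libraries the Pearson r of their log2 levels was -0.952, a description of libraries that share their treatments.

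**Figure D3:**
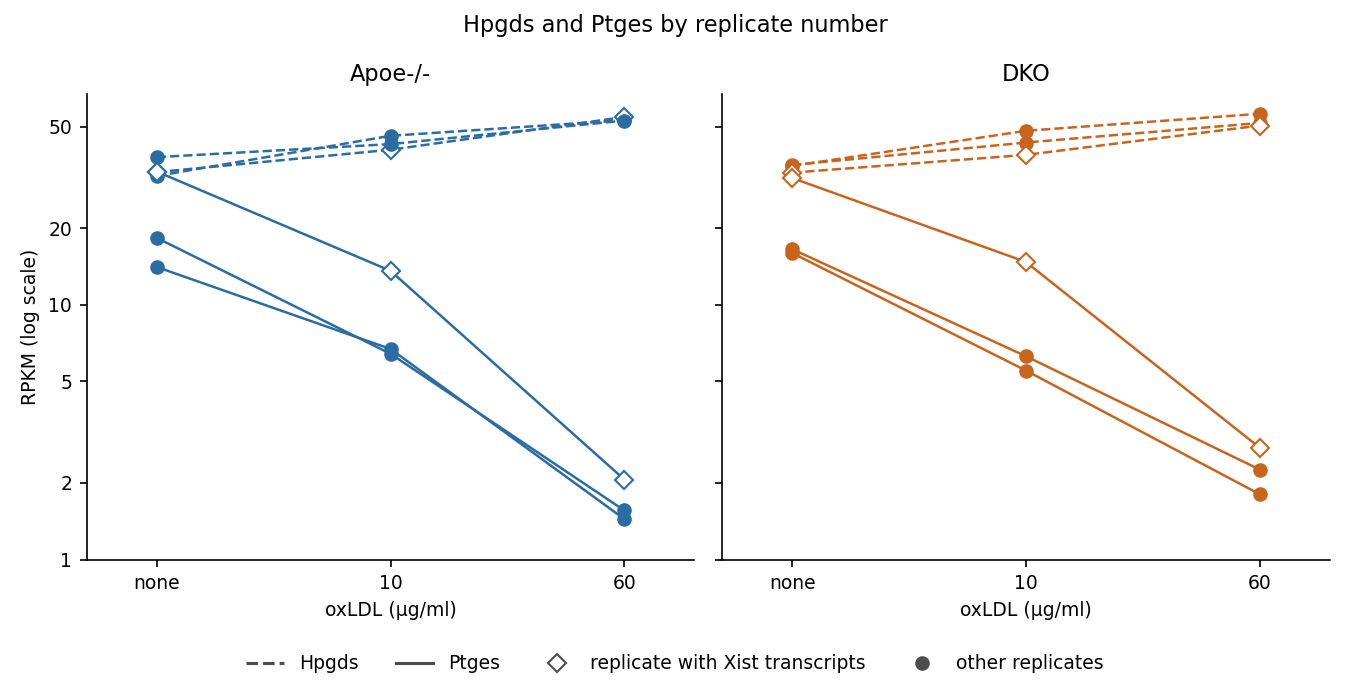
RPKM (y axis, log scale) of Hpgds (dashed) and Ptges (solid) by oxLDL concentration in µg/ml (x axis) in Apoe-/- (left) and DKO (right). Each line joins the 3 libraries of a replicate number, and diamonds mark the replicate with Xist transcripts. Every Ptges line falls at both steps and every Hpgds line rises at both, and the Ptges line of the Xist-positive replicate lies above the other 2 in each genotype.

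The sequences before the start sites of 3 of these genes are shown because Ptgs2 and Ptges fell together while Ptgs1 rose. They are the 250 bases upstream of the start that RefSeq gives in GRCm38.p6, read 5′ to 3′ on the strand of the gene, and no mark or factor was measured on them in this study. Capitals mark matches to the motifs searched.
Ptgs2: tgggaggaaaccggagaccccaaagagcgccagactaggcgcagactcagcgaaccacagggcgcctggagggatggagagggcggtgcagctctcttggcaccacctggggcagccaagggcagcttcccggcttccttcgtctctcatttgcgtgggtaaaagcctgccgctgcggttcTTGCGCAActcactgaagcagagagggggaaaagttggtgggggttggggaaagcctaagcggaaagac
Ptges: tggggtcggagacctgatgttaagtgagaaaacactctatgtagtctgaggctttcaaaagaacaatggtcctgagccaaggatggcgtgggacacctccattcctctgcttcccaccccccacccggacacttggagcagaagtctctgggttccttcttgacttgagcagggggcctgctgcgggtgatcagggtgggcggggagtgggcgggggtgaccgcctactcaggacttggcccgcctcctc
Ptgs1: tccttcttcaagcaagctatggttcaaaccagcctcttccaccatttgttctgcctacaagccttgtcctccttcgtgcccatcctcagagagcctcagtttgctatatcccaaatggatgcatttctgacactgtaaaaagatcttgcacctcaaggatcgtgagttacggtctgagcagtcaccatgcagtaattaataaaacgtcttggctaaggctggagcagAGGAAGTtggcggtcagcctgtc

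The Ptgs2 window is chr1:150099781-150100030 on the plus strand, and the GENCODE M21 annotation places exon sequence of the antisense transcript Ptgs2os on up to 183 of its bases. The Ptges window is chr2:30903298-30903547 on the minus strand, inside an intron of a longer non-coding Ptges transcript. The Ptgs1 window is chr2:36230176-36230425 on the plus strand, with no GENCODE M21 transcript on it. It lies inside the span that RefSeq gives for the Ptgs1 gene, 36216742 to 36258593. The search covered both strands for an E-box (CACGTG), AP-1 or CRE-like letters (TGANTCA), a CRE core (TGACGT), an ETS core (AGGAAGT), part of an interferon-stimulated element, an antioxidant element (TGACNNNGC), C/EBP-like letters (TTNCGNAA) and NF-kB by its usual consensus. Of the 10 genes, 8 had such a window. Ptgs2 held the C/EBP-like letters at positions -69 to -62 from the start, a match found in 2.04% of all 32851 promoter windows. The ETS core was found in Ptgs1 at -23 to -17, in Hpgds at -48 to -42, in Ltc4s at -117 to -111 and before the inner start of Pla2g4a at -14 to -8, and 7.69% of all windows hold it. None of the letters searched were in the windows of Ptges, Alox5, Pla2g7 or the outer start of Pla2g4a. These are matches of letters and not sites.

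In the leukotriene branch, Alox5ap in Apoe-/- at oxLDL 60 was the only call. Alox5ap encodes FLAP, the membrane protein that presents arachidonic acid to 5-lipoxygenase. Apoe-/- libraries stood at 210, 237 and 250 RPKM untreated, 291, 285 and 275 with oxLDL 10 and 357, 347 and 343 with oxLDL 60. DKO libraries stood at 223, 233 and 229, then 264, 271 and 284, then 310, 283 and 315 RPKM. All treated libraries were above the untreated ones, and the concentrations did not overlap in Apoe-/- but touched in DKO, where the lowest oxLDL 60 library (283) was under the highest oxLDL 10 library (284). The log2 fold change at oxLDL 60 was 0.59 in Apoe-/- (SE 0.06, adjusted p = 2.25e-06 by limma, called) and 0.41 in DKO (SE 0.06, adjusted p = 0.000142 by limma, under the fold limit). At oxLDL 10 it was 0.29 (adjusted p = 0.011 by limma) and 0.26 (adjusted p = 0.0303 by limma), under the fold limit in both. The difference between these genotype responses at oxLDL 60 did not pass and is given with the genotype comparison.

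Alox5, the 5-lipoxygenase itself, was low and not called with oxLDL. Apoe-/- values were 2.62, 3.14 and 2.80 RPKM untreated, 2.46, 2.21 and 2.52 with oxLDL 10 and 1.98, 2.56 and 2.23 with oxLDL 60. DKO values were 1.55, 1.77 and 2.78, then 1.77, 1.55 and 2.44, then 1.4, 1.36 and 2.35 RPKM. In Apoe-/- the treated libraries lay below the untreated ones, and in DKO the treatments overlapped. The log2 fold change at oxLDL 60 was -0.33 in Apoe-/- (SE 0.21, adjusted p = 0.268 by limma) and -0.24 in DKO (SE 0.21, adjusted p = 0.458 by limma), and at oxLDL 10 it was -0.24 and -0.06. Per length, Alox5ap RNA was 75.4 to 222 times as abundant as Alox5 in a library, lowest in untreated cells and highest with oxLDL 60.

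Ltc4s, the synthase that joins glutathione to leukotriene A4, ranged from 4.55 to 8.47 RPKM over all libraries. Apoe-/- means were 6.84 ± 0.76 untreated, 7.86 ± 0.59 with oxLDL 10 and 7.08 ± 0.65 RPKM with oxLDL 60 (SD, n = 3). DKO means were 6.54 ± 1.8, 7.03 ± 0.68 and 6.18 ± 1.1 RPKM. The libraries of every pair of groups compared overlapped, and none of the comparisons was called. Log2 fold changes at oxLDL 60 were 0.05 in Apoe-/- (95% interval -0.29 to 0.39) and -0.05 in DKO (-0.40 to 0.29), and their signs turned when libraries were rescaled (-0.01 and 0.01). At oxLDL 10 they were 0.20 (-0.14 to 0.55) and 0.14 (-0.21 to 0.48).

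Alox15, the 12/15-lipoxygenase that oxidises fatty acids of LDL and is known from resident peritoneal macrophages, was barely detected. It stood between 0.0388 and 0.209 RPKM, which corresponds to 4 to 22 reads a library, and reached 0.1 RPKM in 11 of the 18. Log2 fold changes were 0.24 in Apoe-/- (95% interval -0.23 to 0.71) and -0.39 in DKO (-0.86 to 0.08) at oxLDL 10, and -0.20 and -0.34 at oxLDL 60. None was called. The pseudocount of 0.1 RPKM is close to the level of this gene and shrinks its fold changes, and with 0.01 RPKM the value at oxLDL 10 in Apoe-/- was 0.38 and that in DKO -0.65, neither called. By contrast, the lowest library of Ptgs2 held 260 reads and that of Ptges 262.

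Markers of other cells were followed as summed RPKM over fixed lists. The macrophage list, dominated by Lyz2, stood at 8980 to 11800 RPKM in untreated Apoe-/- cells and 6590 to 8570 with oxLDL 60, and at 8410 to 11000 and 5600 to 7210 in DKO. The eosinophil list went from 2.54 to 3.75 RPKM down to 1.5 to 2.11 in Apoe-/-, and from 2.3 to 3.26 down to 1.3 to 1.97 in DKO, with Epx, Prg3 and Il5ra under 0.1 RPKM throughout. The neutrophil list summed to 31.3 to 85.1 RPKM, most of it S100a9 (12.6 to 39.9 RPKM), S100a8 (9.22 to 28.4) and Ngp (3.44 to 9.52), with Ly6g at 0.026 RPKM or less. The mast cell or basophil list summed to at most 0.81 RPKM, with Hdc at up to 0.581, Mcpt8 at up to 0.196 and Kit at up to 0.151, while Cpa3, Tpsab1, Fcer1a and Ms4a2 stayed under 0.1 RPKM. The dendritic cell list summed to at most 0.433 RPKM, the lymphocyte list to 2.65 and the platelet list to 2.43. Stromal markers ranged from 0.62 to 15.1 RPKM over the libraries. Within a replicate number they were lower at oxLDL 60 than untreated in 6 of 6 cases, at 0.646 to 0.96 times the untreated sum. In these bulk samples fewer cells of a type and less RNA per cell cannot be told apart, and the part of other cells in the oxLDL response of the 10 genes was not tested.

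The wider pathway was followed through 10 lists of 84 further genes in the table, of which 63 passed the filter. These lists, too, were chosen with earlier results of these data known, and the action of each gene on prostaglandins or leukotrienes was not tested. With oxLDL 60, 11 were called higher and 13 lower in Apoe-/- (38.1%, beside 13.9% of all genes) and 10 higher and 10 lower in DKO (31.7%, beside 12.2%). With oxLDL 10 the counts were 3 and 4 in Apoe-/- (11.1%, beside 2.79% of all genes) and 2 and 4 in DKO (9.52%, beside 2.26%). In the main fit none was called by limma between genotypes or for an interaction. At an unadjusted p under 0.05 there were 8 of the 63 between genotypes untreated (12.7%, beside 17.3% of all genes), 7 at oxLDL 10 (11.1%, beside 9.75%) and 5 at oxLDL 60 (7.94%, beside 7.88%). For the interactions there were 0 with oxLDL 10 (beside 1.92% of all genes) and 5 with oxLDL 60 (7.94%, beside 9.78%). These shares are near or below those over all genes. The pathway counts at oxLDL 60 fell to 7 higher and 8 lower in Apoe-/- and to 7 and 9 in DKO with a pseudocount of 1 RPKM. Between genotypes, a term for Xist-positive libraries gave 2 called lower in DKO untreated, 2 at oxLDL 10 and 1 at oxLDL 60. Calls among all genes were 172, 75 and 49 there. Without the Xist-positive libraries 1 was called higher and 2 lower untreated, 2 lower at oxLDL 10 and 1 lower at oxLDL 60. Calls among all genes were then 309, 108 and 75.

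The prostanoid receptors held calls in both directions. Of 5 tested, 1 was called higher and 1 lower in each genotype at oxLDL 60, and both are receptors for prostaglandin E2. In Apoe-/-, Ptger4 fell from 16.7 ± 2.3 RPKM (SD, n = 3) untreated to 3.56 ± 0.48 (log2 fold change -2.20, SE 0.14, adjusted p = 4.43e-09 by limma) and from 17 ± 4.2 to 4.22 ± 0.1 in DKO (-1.96, SE 0.14, adjusted p = 1.76e-08 by limma). Ptger2 rose from 1.84 ± 0.21 to 5.09 ± 0.34 RPKM in Apoe-/- (1.42, SE 0.11, adjusted p = 3.33e-08 by limma) and from 1.63 ± 0.21 to 4.47 ± 0.22 in DKO (1.41, SE 0.11, adjusted p = 4.26e-08 by limma). Both were already called at oxLDL 10, at -0.94 and -0.98 for Ptger4 and 0.69 and 0.78 for Ptger2.

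A list of 8 receptors for leukotrienes, lipoxins, platelet-activating factor and related ligands held 6 called lower and none higher in Apoe-/- at oxLDL 60, and 5 lower and 1 higher in DKO. Of all genes 6.78% were called lower in Apoe-/- and 7.31% in DKO. With a pseudocount of 1 RPKM the list held 4 called lower in each genotype. The gene called higher was Ptafr, the receptor for platelet-activating factor and the most abundant of the list, at 38.7 ± 6 RPKM untreated and 49.7 ± 4.5 with oxLDL 60 in Apoe-/- (log2 fold change 0.37, adjusted p = 0.0186 by limma, under the fold limit) and at 34.8 ± 1.3 and 49.5 ± 2.5 in DKO (0.51, adjusted p = 0.00262 by limma, called). Fpr1, a receptor for formylated peptides that is counted among the lower genes, fell from 8.8 ± 1.5 to 0.381 ± 0.12 RPKM in Apoe-/- (log2 fold change -4.22) and from 5.87 ± 2.4 to 0.313 ± 0.2 in DKO (-3.89). Fpr2, which binds lipoxin A4 besides formylated peptides, changed by -3.91 and -3.62 (SE 0.38 each). The chemerin and resolvin E1 receptor Cmklr1 changed by -1.31 and -1.21 (SE 0.19 each). Cysltr1, a receptor for cysteinyl leukotrienes that averaged 8.47 RPKM, changed by -1.02 and -1.10 (SE 0.14 each) and was called lower in both.

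A further list held enzymes that activate fatty acids or put them back into phospholipids, arachidonic acid among them. Of these, 4 of 9 were called lower and none higher in each genotype, where 6.78% and 7.31% of all genes were called lower. Lpcat1 went from 14.4 ± 0.63 to 5.41 ± 0.33 RPKM in Apoe-/- (SD, n = 3, adjusted p = 2.23e-10 by limma) and from 14.8 ± 0.44 to 5.41 ± 0.35 in DKO (log2 fold change -1.43). Lpcat2, which also makes platelet-activating factor, changed by -0.70 and -0.81, and the acyl-CoA synthetase Acsl1 by -0.74 and -0.72. The members best known for handling arachidonate were not called. Lpcat3 was 0.40 and 0.41 (SE 0.09 each, adjusted p = 0.00211 by limma and 0.00219), above untreated but under the fold limit, and Acsl4 was -0.03 and -0.06 (SE 0.06 each). Mboat7 was -0.46 and -0.47 (SE 0.09 each, adjusted p = 0.000596 by limma and 0.000579), below untreated and just under the fold limit. Of the other phospholipases 2 of 10 were called higher in each genotype and none lower, and neither averaged 1 RPKM.

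Of the genes listed for breakdown and transport of the products, 4 were called higher in each genotype and 1, Dpep3, lower in Apoe-/-. Cbr3, a carbonyl reductase, rose from 11.3 ± 1.5 to 48 ± 0.93 RPKM in Apoe-/- (log2 fold change 2.09) and from 11.9 ± 1.1 to 42.7 ± 1.1 in DKO (1.84). Ptgr1, which acts on leukotriene B4 and reduces 15-keto prostaglandins, rose by 1.42 and 1.29. They were the 2 called genes among 6 listed for prostanoid breakdown and transport. Hpgd, the enzyme that starts the breakdown of prostaglandins, stood at 16.7 ± 4.5 RPKM untreated and 8.33 ± 1.2 with oxLDL 60 in Apoe-/- (-0.96, SE 0.41, adjusted p = 0.091 by limma) and at 9.43 ± 6.6 and 3.96 ± 1.7 in DKO (-1.10, SE 0.41, adjusted p = 0.0615 by limma), not called. With the replicate number as a block it was called lower in both genotypes, with an SE of 0.16 (adjusted p = 0.000136 by limma and 4.13e-05). It was also called lower in both with a term for the Xist-positive libraries (adjusted p = 0.00421 by limma and 0.00175) and without those libraries (-1.03 and -0.89, adjusted p = 0.000982 by limma and 0.0036). Abcc1, the exporter of leukotriene C4, rose by 0.85 and 0.74 and was 1 of 2 genes called higher among 6 of leukotriene breakdown and transport, where 1 was called lower in Apoe-/- and none in DKO. The lower one was the dipeptidase gene Dpep3, which averaged 0.176 RPKM, at -0.80 in Apoe-/- (SE 0.29, adjusted p = 0.0498 by limma) and -0.71 in DKO (SE 0.29, adjusted p = 0.0897 by limma). With the block it was called in DKO too (adjusted p = 0.0312 by limma), and in Apoe-/- the call was lost with no filter on low values (0.0783) and with a pseudocount of 1 RPKM (0.115). The block also added Mgll in Apoe-/- (0.55, adjusted p = 0.017 by limma) and Ephx1 in DKO (0.51, adjusted p = 0.000253 by limma) to the genes called higher.

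Akr1b8, an aldo-keto reductase, was the single call among 7 genes listed as other prostanoid enzymes. It was higher in both genotypes with log2 fold changes of 1.23 and 0.96. Of 5 genes listed as other lipoxygenase and leukotriene enzymes, Mgst1 was called higher in both (1.01 and 0.92). Mgst2, which can make leukotriene C4, was called higher in Apoe-/- (1.05, SE 0.28) but not in DKO (0.25, SE 0.28), a difference between genotypes that was not called. Pafah2, an intracellular relative of Pla2g7, was called in Apoe-/- (0.51) and stayed under the fold limit in DKO (0.37), the only call among 4 such hydrolases. Of 3 genes for epoxide hydrolases and epoxygenases, 1 was called lower in Apoe-/- (Cyp2j9, which averaged 0.0781 RPKM) and none in DKO.

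**Figure D4:**
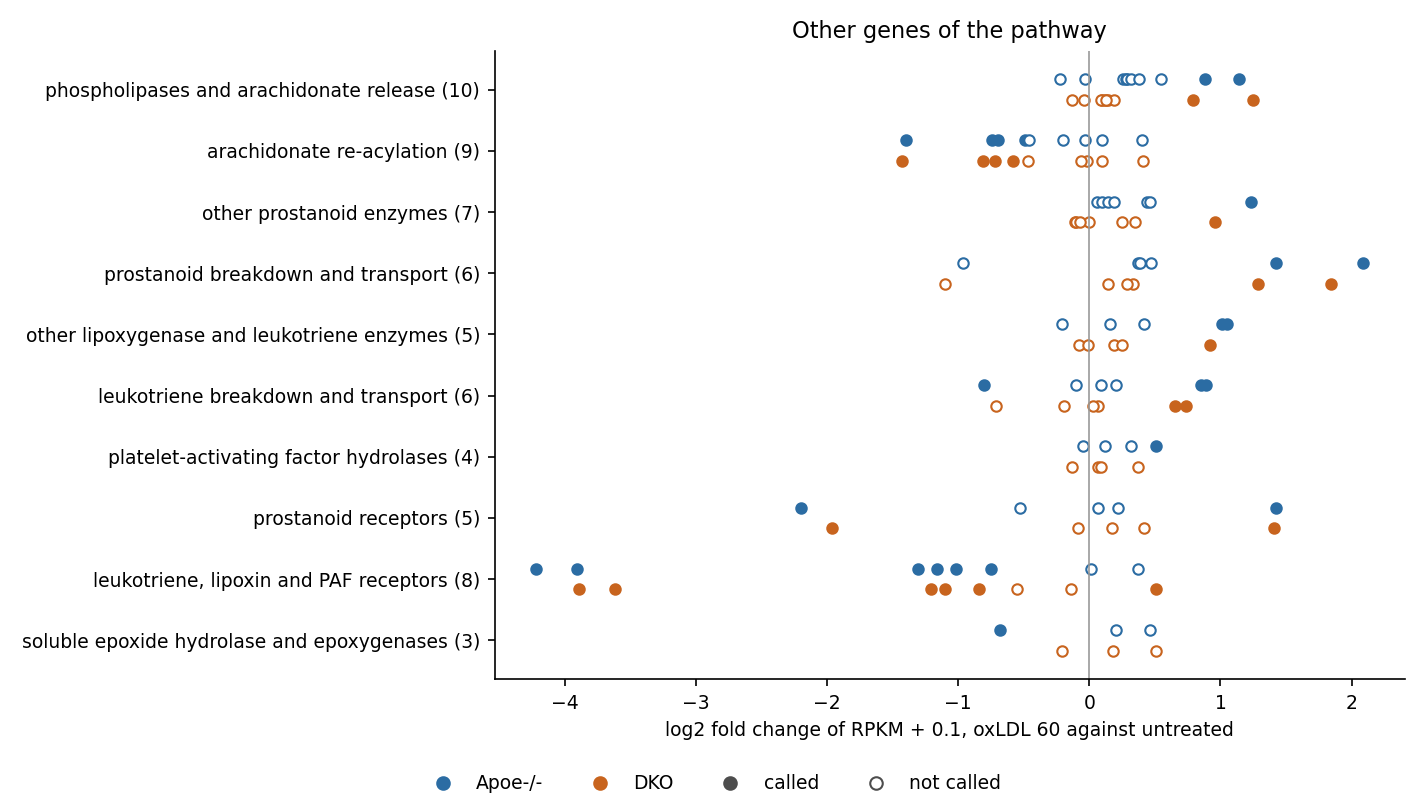
Log2 fold change of RPKM + 0.1 at oxLDL 60 against untreated (x axis) for the 63 tested genes of the 10 pathway lists (rows, with the number tested), in Apoe-/- (blue, upper) and DKO (orange, lower). Filled points were called, open points not. The prostanoid receptors hold a called gene on each side of 0, and the lowest points are Fpr1 and Fpr2 at -4.22 and -3.91 in Apoe-/-.

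The study asked what loss of Treml4 adds to these responses. None of the 10 genes was called in DKO against Apoe-/- untreated, at oxLDL 10 or at oxLDL 60 with limma, where 0.21%, 0.0857% and 0.125% of all genes were called. In each of the 3 comparisons 1 of the 10 had an unadjusted p under 0.05, beside 2225, 1252 and 1011 of the 12838 tested genes. None was called for the interaction of genotype with oxLDL 10, where 0% of all genes were called, or with oxLDL 60 (0.0156%), and none of the 10 had an unadjusted p under 0.05 there, beside 246 and 1256 of all genes.

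Untreated, the smallest p was that of Alox5, with a mean of 2.03 ± 0.65 RPKM (SD, n = 3) in DKO and 2.85 ± 0.26 in Apoe-/- (-0.51 on the log2 scale, SE 0.21, adjusted p = 0.244 by limma). The DKO group was split: replicates 1 and 2 stood at 1.36 to 1.77 RPKM at every treatment, below all 9 Apoe-/- libraries (1.98 to 3.14), while the Xist-positive replicate 3 stood at 2.35 to 2.78. Without the Xist-positive libraries Alox5 was called untreated (-0.68, SE 0.12, adjusted p = 0.00838 by limma) and at oxLDL 10 (-0.56, adjusted p = 0.0451 by limma), and it was not called at oxLDL 60 (-0.57, adjusted p = 0.0537 by limma). These values rest on 2 animals of each genotype if a replicate number marks an animal. Without the Xist-positive libraries 309 of all genes were called untreated, 108 at oxLDL 10 and 75 at oxLDL 60. In the main fit those counts were 27, 11 and 16. Over 15 alternatives the limma adjusted p of Alox5 ran from 0.00838 to 0.651 untreated, from 0.0451 to 0.983 at oxLDL 10 and from 0.0537 to 0.969 at oxLDL 60. The summed neutrophil list, with Ly6g near 0, stood at 48.3 to 85.1 RPKM in DKO replicates 1 and 2, at 33.9 to 39.9 in DKO replicate 3 and at 31.3 to 49.7 in Apoe-/-, and its part in the Alox5 values was not tested.

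At oxLDL 10 the smallest p was that of Ptgs1, with 15.9 ± 0.52 RPKM in DKO and 13.8 ± 0.56 in Apoe-/- (log2 fold change 0.20, SE 0.07, adjusted p = 0.461 by limma). The libraries did not overlap, and the 95% interval was 0.05 to 0.35. At oxLDL 60 it was that of Alox5ap, with 303 ± 17 RPKM in DKO and 349 ± 7.5 in Apoe-/- (-0.21, SE 0.06, adjusted p = 0.439 by limma). These libraries did not overlap either, and the 95% interval was -0.34 to -0.07. Alox5ap also had the smallest p for the interaction with oxLDL 60, -0.19 (SE 0.09, 95% interval -0.38 to 0.01, adjusted p = 0.513 by limma), and Alox15 that for the interaction with oxLDL 10, -0.63 (SE 0.32, 95% interval -1.30 to 0.04, adjusted p = 1 by limma), at its 4 to 22 reads.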

How the data were processed

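The deposited table holds RPKM values per gene and library, made by the authors from reads aligned with STAR to mm10, as named in the submitters' processing notes. The counter, its strand setting and the gene annotation are not given in the sources used here, so reads of Ptgs2 and of overlapping antisense transcripts may not be separated. RPKM is relative to library total and gene length, so a few abundant genes can shift all others. Relative depth was recovered from the steps of low RPKM values (13778 values compared, 89.1% within 0.05 of a whole step), and reads per gene from it with GENCODE M21 exon lengths.

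Groups came from the sample titles. The 10 genes, the pathway lists, the marker lists and the alternatives with Xist-positive libraries were chosen with earlier results of these data known. Of 18668 rows, 12838 reached 0.1 RPKM in 3 libraries or more and were tested as log2(RPKM + 0.1) with limma 3.58.1 (R 4.3.3, trended eBayes) on 6 group means over 18 libraries, with Benjamini-Hochberg adjustment in each of 11 comparisons. The fit was tested on simulated data. A call needed an adjusted p under 0.05 and a fold change of at least 1.4. Fold changes of low genes are understated by the pseudocount.

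Named genes were all 10, with fold changes against untreated, and for the genotype comparisons and interactions those called or else the one with the smallest p. Of the pathway lists, called genes averaging at least 1 RPKM were named, up to 3 a list by size of change at oxLDL 60 in Apoe-/-. Cyp2j9, Hpgd, Dpep3, Ptafr, Cysltr1, Lpcat3, Acsl4, Mboat7, Mgll and Ephx1 were added after their values were seen. Libraries of a genotype that carry the same replicate number deviated together from their group means in all 18 pairs (r 0.183 to 0.695), so the replicate number was taken to pair libraries within a genotype. The main fit does not use this pairing, and the replicate block was run as an alternative. Between genotypes the replicate number did not pair libraries (median r -0.168), yet the block in the genotype comparisons joined equal numbers across genotypes. Where nothing says that replicates came from separate animals, p-values measure the spread between these libraries. Promoter windows came from RefSeq (GRCm38.p6). Alternatives were other pseudocounts, no filter, rescaled libraries, fits of only the groups compared, the replicate block, a term for or removal of Xist-positive libraries, no fold limit, and each library left out in turn.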

Additional observations from a re-analysis of the deposited data

How the results depend on the processing

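Calls at oxLDL 60 against untreated kept their number within 1.5 times under every alternative run, and at oxLDL 60 the fall of Ptges and Ptgs2 was called under all of them. The number of the 10 genes called at oxLDL 10 against untreated was 1 in each genotype. It was 0 in both with no filter on low values, 2 in both with the replicate block that pairs libraries within a genotype, 2 in both with a term for Xist-positive libraries and without those libraries, and 3 in Apoe-/- and 4 in DKO with no fold limit. Leaving out single libraries gave 0 to 1 in each. Calls among all genes moved as well, from 358 in Apoe-/- and 290 in DKO in the main fit. They were 310 and 235 with no filter, 528 and 449 with the block, and 469 and 393 with the Xist term. Without the Xist-positive libraries they were 427 and 314, and with no fold limit 904 and 510. From oxLDL 10 to 60 the count of 2 among the 10 genes became 6 in Apoe-/- and 4 in DKO with no fold limit. In DKO it was 1 with no filter, and 1 to 2 over single libraries left out. With no fold limit the calls among all genes there went from 829 to 1731 in Apoe-/- and from 726 to 2000 in DKO. Between genotypes the count of 0 became 1, Alox5, in untreated cells with a term for Xist-positive libraries and without them. It also became 1, again Alox5, at oxLDL 10 without them. Calls among all genes rose in these settings too. Untreated they went from 27 to 172 with the term and to 309 without the Xist-positive libraries. At oxLDL 10 they went from 11 to 108 without those libraries. The replicate block changed no other count of the 10 genes. In the genotype comparisons it joined equal replicate numbers across genotypes, which did not deviate together. Its results there, also within the Alox5 ranges, therefore rest on no real pairing.

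Signs turned for genes that were not called in the comparison concerned. Over single libraries left out, Pla2g4a at oxLDL 10 in Apoe-/- ran from -0.01 to 0.20 and Pla2g7 from -0.01 to 0.33. Ltc4s ran from -0.02 to 0.14 at oxLDL 60 in Apoe-/-, from -0.29 to 0.10 at oxLDL 60 in DKO and from -0.10 to 0.29 at oxLDL 10 in DKO, and Alox5 at oxLDL 10 in DKO from -0.24 to 0.18. After rescaling Ltc4s at oxLDL 60 was -0.01 in Apoe-/- and 0.01 in DKO. The causes were not tested. Depth was lowest for Alox15, at 4 to 22 reads a library.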

Other observations

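Some of the 10 genes differed between replicates in the same way at every treatment. In the Xist-positive library of each group Ptges was above the other 2 in 6 of 6 groups, at 1.35 to 2.5 times their mean, and Ltc4s in 6 of 6, at 1.12 to 1.35 times. Pla2g4a was below in 6 of 6, at 0.794 to 0.984 times. Ptgs2 was below in 5 of 6, at 0.527 to 0.844 times, and above in untreated Apoe-/-, at 1.34 times. Pla2g7 was above in the 3 Apoe-/- groups and below in the 3 DKO groups. Of all 12838 tested genes, 2.51% were above in all 6 groups and 7.28% below. No share over all genes was counted for 5 of 6 groups. The Xist-positive replicates number 1 in each genotype, so whatever else is particular to these replicates cannot be told apart from the presence of Xist. Their libraries also held the lowest summed stromal markers of each group (0.62 to 1.44 RPKM, beside 3.72 to 15.1 in the others) and the lowest summed neutrophil markers (31.3 to 39.9 RPKM, beside 40.7 to 85.1), and the part of these in the values above was not tested.

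Across the 18 libraries, and among 10101 genes with a mean of at least 1 RPKM, the genes whose log2 levels were most like Ptges by Pearson r were C3 (0.989), Orai2 (0.987) and Sod2 (0.986). For Ptgs2 they were Ccl3 (0.972), Ccl4 (0.971) and Stk38l (0.938), for Pla2g7 Mgst1 (0.979), Pnpla7 (0.967) and Psap (0.965), and for Ptgs1 Ikbkg (0.97), Akr1b8 (0.962) and Speg (0.956). The libraries share treatments, so these values are descriptions of this set.

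Pla2g4a and Ptgs2 are neighbours on chromosome 1, 139 kb apart with 2 annotated RefSeq genes between them, the pseudogene Gm19136 and the non-coding Ptgs2os. With oxLDL 60 Pla2g4a stood above untreated (log2 fold changes 0.45 and 0.31) and Ptgs2 below (-1.32 and -1.27).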
